A study of Mus musculus with 4 samples.

Results

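The Wnt pathway genes were taken from the table by gene name. The rule took every Wnt ligand, Frizzled receptor, secreted Frizzled-related protein and Dickkopf gene, together with further named receptors, R-spondins, regulators and transcription factors, and kept those whose normalized counts averaged 10 or more across the 4 libraries. Of 55397 genes listed, 62 carried such a name and 52 of these passed the minimum, among 15809 genes that passed in all. Fzd9 and Rspo1 (means of 11.2 and 11.8) were just inside the minimum and Wnt7a (8.78) just outside. The 4 libraries are bulk RNA-seq of primary mouse embryonic fibroblasts (MEFs) from embryos at E13.5, and every culture was C57BL/6J Prox1 fl/fl, grown on collagen and driven toward induced hepatocytes (iHeps) by a lentivirus carrying the 4in1 reprogramming factors. Cells labelled Prox1 KO (2 libraries, called KO-labelled here) also received Cre-recombinase with GFP, and the control cells (2 libraries) received dCre-GFP, a form of the recombinase that does not cut. RNA was collected on day 14 by lysing the cultures, with no sort stated, so cells that did not convert may be part of each library, and the MEFs came from the limbs of pooled embryos. Nothing in the labels ties a replicate number to one embryo.

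Wnt proteins are secreted lipid-modified ligands that bind Frizzled receptors together with the co-receptors Lrp5 and Lrp6. Binding stops the destruction complex, which is built on Axin, from degrading β-catenin, and β-catenin then enters the nucleus and acts with TCF/LEF factors on target genes. R-spondins strengthen the signal by binding Lgr receptors and removing the ubiquitin ligases Znrf3 and Rnf43, which otherwise clear Frizzled from the membrane, while secreted Frizzled-related proteins, Wif1 and several Dickkopf proteins dampen it. In the adult liver the pathway is best known for setting the gene program of hepatocytes around the central vein.

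Each library held between 42469031 and 48524008 reads on genes, and the values are read counts divided by a size factor per library. Where a pair of values is given for a group, replicate 1 comes before replicate 2. Prox1, the targeted gene, had 70 and 63 reads in the KO-labelled libraries and 66 and 24 in the controls. In normalized counts it stood at 72.7 and 61.6 against 60.6 and 25.5, so both KO-labelled libraries lay above both controls. The gene was thus not lower in the KO-labelled libraries, with differences of 0.26 in pair 1 and 1.24 in pair 2. It was not called (log2 fold change 0.75, SE 0.27, adjusted p = 0.0936 from limma). The study's source data describe the knockout as deletion of a single exon, and whether reads on that exon fell was not tested with these counts per gene. The directions given here therefore rest on the labels. Read against the MEF label, collagen genes were abundant, with Col1a1 at 251989.5 to 300038 normalized counts, and the hepatocyte gene Alb was present at 3838 to 5021. Marker lists of other cells moved between the groups as well. Of 8 hepatocyte markers 6 were lower in the KO-labelled libraries, with summed normalized counts of 16093 and 17525 against 21955 and 21493 in the controls. All 7 tested markers of simple epithelium were lower (summed 7518 and 8615 against 12516 and 17996), as were 5 of 5 cell cycle genes (1201 and 1527 against 1982 and 2263) and 4 of 11 fibroblast markers. Of 3 tested muscle markers, Des and Acta2 were higher. The endothelial receptor gene Kdr was higher, at 938 and 770.3 against 564 and 509, while Pecam1 and Cdh5 held at most 12.5 normalized counts in any library. Msln was the single mesothelial marker called lower, and no keratinocyte, chondrocyte, adipocyte, macrophage or neuron marker was called in limma, where the macrophage gene Adgre1 was at 0 in all 4 libraries. In bulk RNA, fewer cells of a type and less RNA per cell cannot be told apart, and the part of these shifts in the results below was not tested.

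Between the groups, 13 of the 52 Wnt pathway genes (25%) had an adjusted p under 0.05 in limma, against 11.4% of all tested genes, and the difference of these shares was not tested. The test used log2(normalized counts + 1), on which changes of genes with few counts come out too small, with the replicate number as a block. Wif1, Wnt4, Fzd10, Wnt9a, Axin2, Wnt10a and Sfrp2 were higher in the KO-labelled libraries, which is 7 of 52 members against 5.09% of all genes. Lgr5, Wnt2b, Rspo2, Fzd4, Dkk3 and Dkk2 were lower, 6 of 52 against 6.29%. The sizes were small, with a median absolute log2 fold change of 0.39 over the 13 genes, against 0.28 over all called genes, and Lgr5 was the largest at -0.97. Over the 52 genes the median log2 fold change was -0.03, beside -0.0022 over all tested genes. For 10 of the 13 the groups did not overlap, and the exceptions were Wif1, Fzd10 and Sfrp2. Among all 52 members, called or not, the groups did not overlap for 25. Across the 52 genes, 41 had the same sign in both replicate pairs. The shares over all tested genes were not counted, so none of these counts of overlap or sign sets the members apart from other genes. DESeq2 with the same block called 3 of the 45 members to which it gave an adjusted p, namely Rspo2, Lgr5 and Dkk3, against 3.52% of all such genes, all 3 lower. Without the replicate block limma called 0 members, with 11 at an unadjusted p under 0.05, and DESeq2 called 2. Corrected for GC content and length, the calls were 9 higher and 6 lower among members and 1213 higher and 926 lower among all genes, against 804 higher and 994 lower without the correction.

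**Figure D1:**
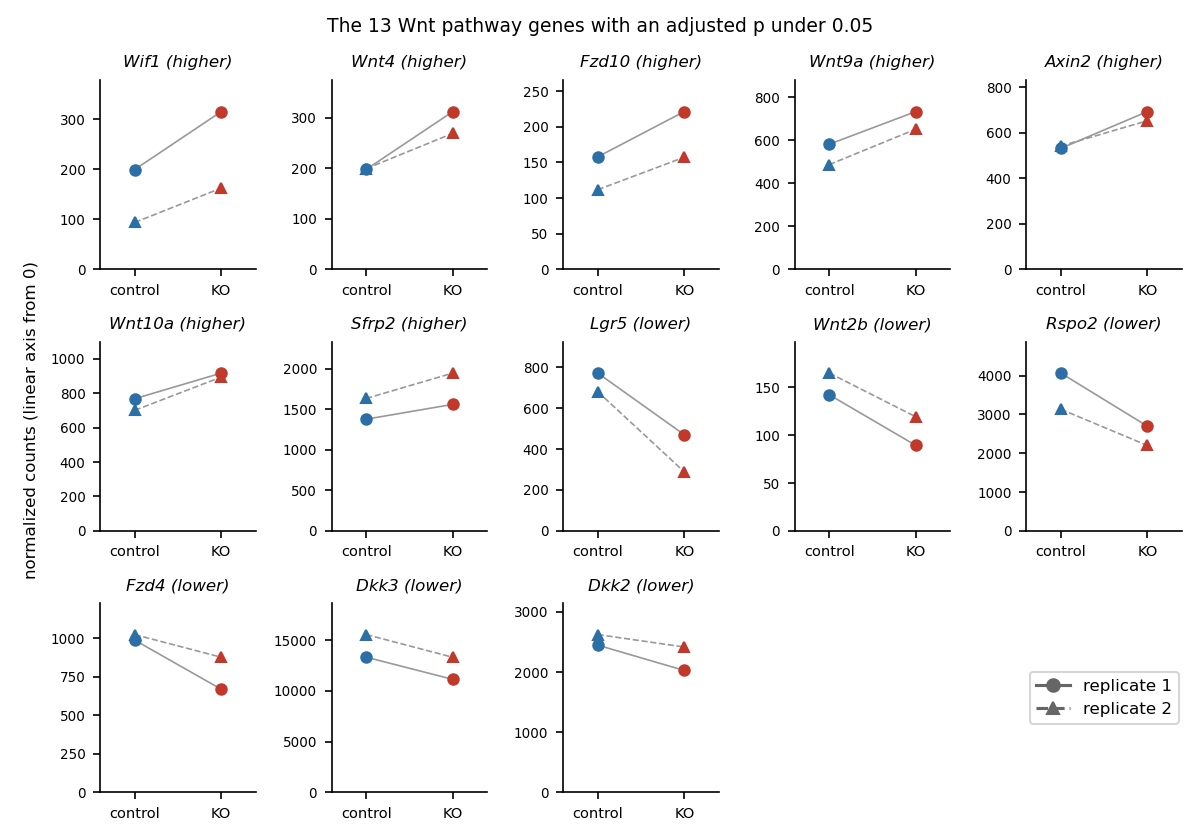
Normalized counts, on linear axes from 0, of the 13 Wnt pathway genes with an adjusted p under 0.05 in limma, in the 2 control and the 2 KO-labelled libraries (KO). A line joins libraries of the same replicate number, and all 13 genes moved the same way in both pairs.

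The ligands stand first in the pathway. Of 19 Wnt genes listed, 12 were tested, and 3 were higher and 1 lower in the KO-labelled libraries. Wnt4 (ENSMUSG00000036856; chromosome 4, 137277489 to 137299726, GRCm38), a ligand of kidney and gonad development, had 312 and 269 normalized counts in the KO-labelled libraries and 197 and 199 in the controls. Both KO-labelled libraries lay above both controls, and the log2 fold change was 0.54 (SE 0.12, adjusted p = 0.00961 from limma). Wnt9a (ENSMUSG00000000126; chromosome 11, 59306928 to 59333552), known from joint formation, stood at 733 and 651 against 581 and 486 normalized counts. The groups did not overlap (log2 fold change 0.38, SE 0.08, adjusted p = 0.00593). Wnt10a (ENSMUSG00000026167; chromosome 1, 74791516 to 74804179), known from tooth and skin appendage development, had 917 and 893 against 767 and 700.4, again without overlap (log2 fold change 0.30, SE 0.071, adjusted p = 0.0111). Wnt2b (ENSMUSG00000027840; chromosome 3, 104945272 to 104961921), a ligand of the canonical branch, went the other way, with 89.4 and 119 against 142 and 165 (log2 fold change -0.57, SE 0.16, adjusted p = 0.0368). The call of Wnt2b was lost under quantile normalization. In DESeq2 with the block, Wnt4, Wnt9a, Wnt10a and Wnt2b were all uncalled.

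Per kilobase of annotated exon, Wnt5a was the ligand gene with the highest level, with 428 normalized counts per kilobase over the 4 libraries, followed by Wnt2 at 341 and Wnt10a at 332. Wnt2 and Wnt10a overlapped over the libraries (295 to 362 and 284 to 371 per kilobase), so their order was not resolved. Wnt5a, the main ligand of the β-catenin-independent branch, had 3473 and 3557 normalized counts in the KO-labelled libraries and 3213 and 3138 in the controls. The groups did not overlap, and the difference fell just outside the threshold (log2 fold change 0.15, SE 0.046, adjusted p = 0.0509 from limma), but passed in 2 of 11 alternative settings, a minimum mean of 50 and the correction for GC content and length. Wnt2, a ligand made by mesenchyme and endothelium, had 666 and 815 against 801 and 795, and the control values lay between the other libraries. The remaining ligands that were tested (Wnt16, Wnt11, Wnt5b, Wnt10b, Wnt6 and Wnt7b) had log2 fold changes of -1.48 to 0.1 and none was called in this limma fit, though Wnt16 passed as lower when all genes above 0 were tested. Wnt7b held that lowest value with opposite signs in the pairs (-4.09 in pair 1 and 1.14 in pair 2), and its normalized counts were 2.08 and 17.6 against 51.4 and 7.45. The other 7 ligand genes stayed under the minimum, with highest values of 15.6 for Wnt7a, 4.89 for Wnt3, 2.13 for Wnt8b, 2.08 for Wnt3a, 1.84 for Wnt8a, 1.04 for Wnt9b and 0.977 for Wnt1.

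**Figure D2:**
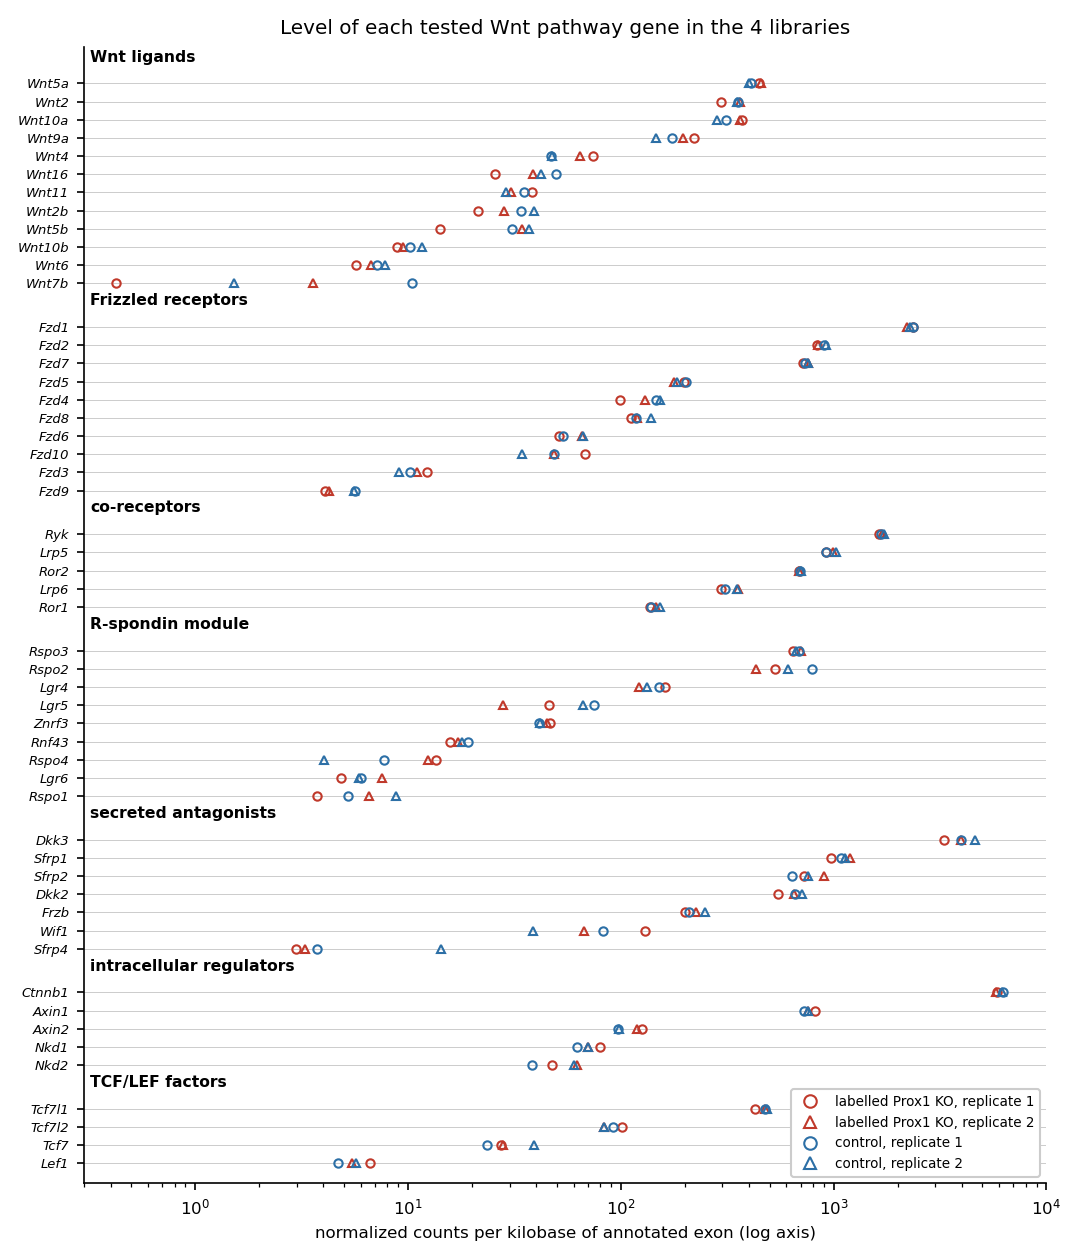
Normalized counts per kilobase of annotated exon (log axis) of the 52 tested Wnt pathway genes, grouped by role, with 1 point for each of the 4 libraries. Ctnnb1 was at 6014 per kilobase on average and Wnt7b at 4.01, while for most genes the 4 libraries lay close to each other.

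Next come the receptors. All 10 Frizzled genes were tested, and 1 was higher and 1 lower. Fzd4 (ENSMUSG00000049791; chromosome 7, 89404355 to 89413134), the receptor for Norrin in retinal vessels, had 669 and 877 normalized counts in the KO-labelled libraries and 988 and 1024 in the controls. The groups did not overlap, with the largest gap in replicate 1, and the log2 fold change was -0.39 (SE 0.08, adjusted p = 0.00466 from limma), or -0.56 in pair 1 and -0.22 in pair 2. Fzd10 (ENSMUSG00000081683; chromosome 5, 128600844 to 128604093) had 221 and 157 against 158 and 112. The KO-labelled library of replicate 2 was level with the control of replicate 1, so the groups overlapped, while within pairs the gene was higher by 0.48 and 0.49 on the log2 scale (SE 0.15, adjusted p = 0.0428 from limma).

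Fzd1 alone made up 51.3% of the level summed over the Frizzled genes per kilobase, with 2307 normalized counts per kilobase, ahead of Fzd2 at 877 and Fzd7 at 743. The ranges of these 3 genes did not overlap with each other. Fzd1 had 9924 and 9317 normalized counts against 9882 and 9601 in the controls. For Fzd7 the values were 3257 and 3439 against 3327 and 3447, and both genes overlapped between the groups. Fzd2 had 3054 and 3104 against 3309 and 3385, below the controls in both pairs without passing (log2 fold change -0.12, SE 0.045, adjusted p = 0.109). The other 5 Frizzled genes without a call (Fzd3, Fzd5, Fzd6, Fzd8 and Fzd9) had log2 fold changes of -0.39 to 0.27.

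None of the 5 co-receptor genes was called, and in the limma fit their log2 fold changes lay between -0.04 and -0.02. Correction for GC content and length moved Ryk to 0.014, Lrp5 to -0.081 and Lrp6 to -0.057. Ryk, an atypical receptor that binds Wnt ligands, had 7422 and 7622 normalized counts against 7565 and 7783 in the controls. Lrp5, the partner of Frizzled in the β-catenin branch, had 8953 and 9706 against 8963 and 10004. Ror2, a receptor tyrosine kinase for Wnt5a, had 2913 and 2926 against 2963 and 2993. In Ryk and Lrp5 the groups overlapped, and in Ror2 the KO-labelled libraries lay just below the controls (log2 fold change -0.029, SE 0.046). Per kilobase, Ryk (1676), Lrp5 (966) and Ror2 (695) were followed by Lrp6 (328) and Ror1 (144).

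In the R-spondin module, 2 of 9 genes were lower in the KO-labelled libraries and none was higher. Lgr5 (ENSMUSG00000020140; chromosome 10, 115450311 to 115587780), an R-spondin receptor that is itself a Wnt target and marks stem cells of the gut and pericentral hepatocytes, had 469.7 and 288 normalized counts in the KO-labelled libraries and 771 and 680.2 in the controls. Both KO-labelled libraries were below both controls, with log2 differences of -0.71 in pair 1 and -1.24 in pair 2, or 0.51 times the control level in the fit (log2 fold change -0.97, SE 0.11, adjusted p = 2.99e-05 from limma). Rspo2 (ENSMUSG00000051920; chromosome 15, 43020794 to 43170826), one of the ligands of the Lgr receptors and required for limb and lung growth, had 2698 and 2200.3 against 4066 and 3134. This was 0.68 times the control level in the fit, also without overlap (log2 fold change -0.55, SE 0.047, adjusted p = 2.70e-06 from limma). Both genes passed in 10 of 11 alternative settings, the exception being limma without the replicate block.

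Rspo3, the R-spondin of liver endothelium, was close to Rspo2 in level per kilobase (676 against 592), and their ranges over the libraries overlapped. It had 1990.1 and 2181 normalized counts against 2129 and 2052 in the controls, with overlapping groups and a log2 fold change of -0.0049, SE 0.055. Rspo4 went in the opposite direction to Rspo2 at a far lower level, with 32.2 and 29.3 against 18.4 and 9.58. The groups did not overlap and the log2 fold change of 1.15 (SE 0.37) had an adjusted p of 0.0566 in limma, and it passed in 1 alternative setting, the correction for GC content and length. Lgr4, the broadly expressed R-spondin receptor, had 951 and 716 against 892 and 782, overlapping, and Lgr6 was low with opposite signs in the pairs, at 33.3 and 51.8 against 41.3 and 40.5. Rspo1 was lower still in level, with 7.27 and 12.7 against 10.1 and 17.0 and overlapping groups. The ligases that R-spondins remove were not called either, with log2 fold changes of 0.15 (SE 0.10) for Znrf3 and -0.17 (SE 0.17) for Rnf43.

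Among the secreted antagonists, 7 of 10 genes were tested, and 2 were higher and 2 lower. Wif1 (ENSMUSG00000020218; chromosome 10, 121033960 to 121100650), which binds Wnt ligands outside the cell, had 315 and 162 normalized counts in the KO-labelled libraries and 199 and 93.7 in the controls. Replicate 1 was higher than replicate 2 in both groups and the groups overlapped, but within each pair the gene was higher by 0.66 and 0.79 on the log2 scale (SE 0.14, adjusted p = 0.00319 from limma). Sfrp2 (ENSMUSG00000027996; chromosome 3, 83766321 to 83774316), a secreted decoy with a Frizzled-like domain, had 1562 and 1948 against 1379 and 1635. It overlapped between groups and was higher within pairs (log2 fold change 0.22, SE 0.055, adjusted p = 0.0183), and 16.1% of its exon bases lie under another annotated gene. Dkk3 (ENSMUSG00000030772; chromosome 7, 112116017 to 112159057), a divergent Dickkopf that does not bind Lrp6 as Dkk1 does, had 11125 and 13299 against 13308 and 15535. The lowest control lay just above the highest KO-labelled library (log2 fold change -0.24, SE 0.039, adjusted p = 8.11e-04). Dkk2 (ENSMUSG00000028031; chromosome 3, 132085292 to 132180304), an Lrp6 ligand, had 2026 and 2416 against 2447 and 2623. Its log2 fold change was -0.19 (SE 0.052, adjusted p = 0.0247 from limma). Pair 1 differed by -0.27 and pair 2 by -0.12.

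Dkk3 was the highest of the antagonists per kilobase, at 3964 normalized counts, with Sfrp1 next at 1095. Sfrp1 had 4229.5 and 5229 normalized counts against 4732 and 4967 and the controls lay between the other libraries. Frzb, another Frizzled-like decoy, had a log2 fold change of -0.10 (SE 0.074). Sfrp4 was low and set by 1 control library, with 12.5 and 13.7 against 15.6 and 59.6 (log2 fold change -1.17, SE 0.42, adjusted p = 0.09 from limma), and edgeR with the same block called it lower. The other 3 antagonist genes were under the minimum, with highest values of 1.06 for Dkk1, 0.977 for Sfrp5 and 0 for Dkk4.

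**Figure D3:**
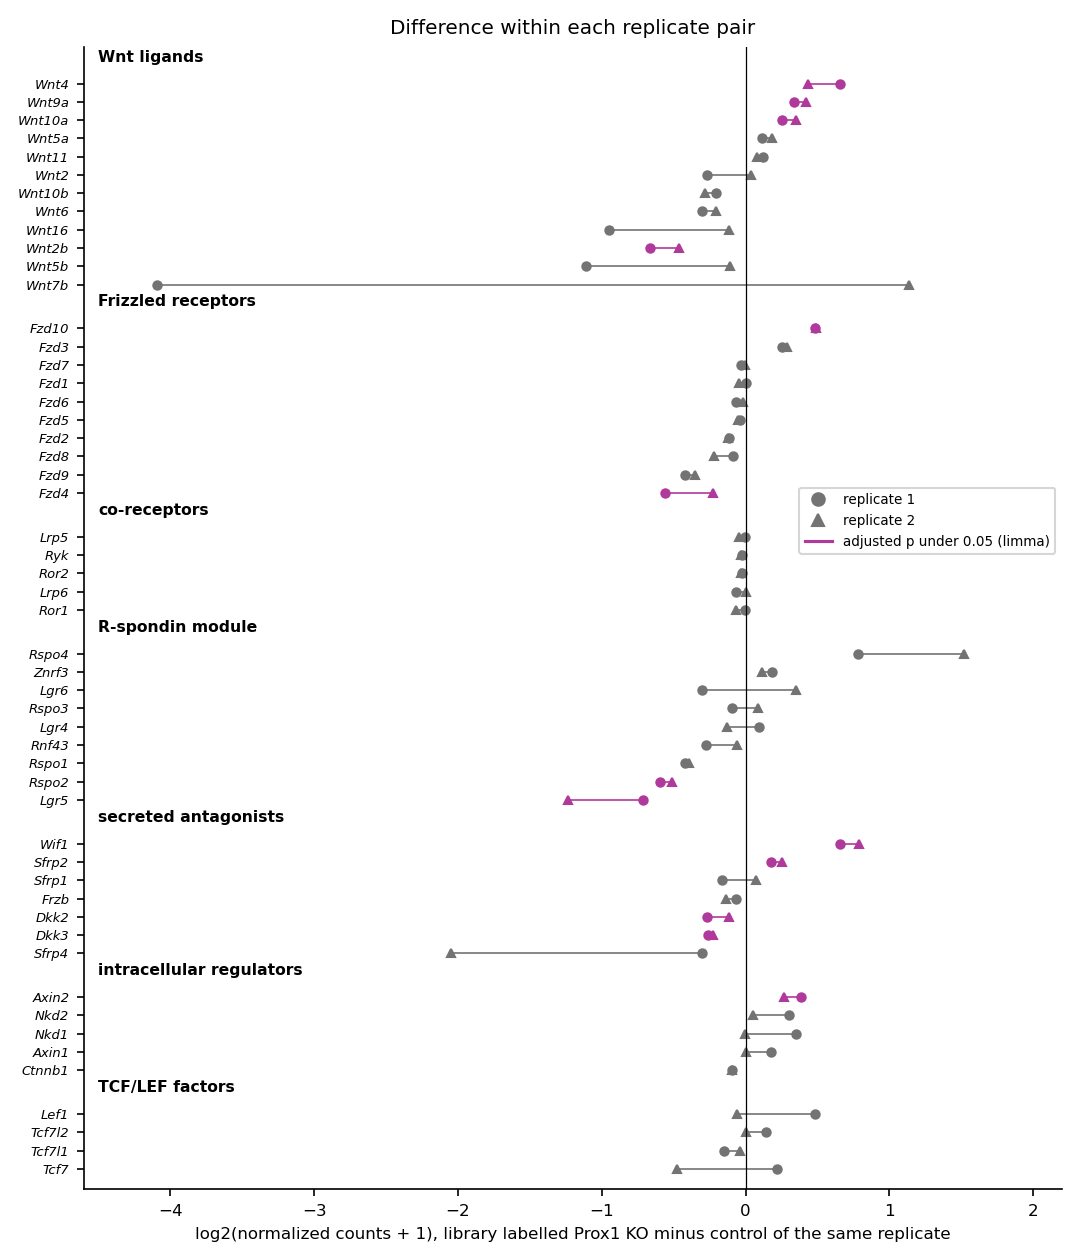
Difference in log2(normalized counts + 1) between the KO-labelled library and the control of the same replicate number, for the 52 tested genes by role, with the genes called by limma in purple. Both pairs of Lgr5 lie at or below -0.71 and both of Wif1 at or above 0.66, while the 5 co-receptors stay close to 0.

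Inside the cell, Axin2 was the 1 gene of 5 that was called. Axin2 (ENSMUSG00000000142; chromosome 11, 108920349 to 108950783), a scaffold of the destruction complex and a widely used reporter of β-catenin activity because it is induced by the pathway as negative feedback, had 693 and 653 normalized counts in the KO-labelled libraries and 532 and 542 in the controls. Both KO-labelled libraries were above both controls, and the fitted level was 1.25 times the control (log2 fold change 0.33, SE 0.081, adjusted p = 0.0158 from limma). Ctnnb1, which encodes β-catenin, had 30448 and 29966 against 32492 and 31987, with a log2 fold change of -0.094 and no overlap (SE 0.039, adjusted p = 0.156), and 15.1% of its exon bases lie under another gene. Axin1, the constitutive scaffold, had 3123 and 2899 against 2769 and 2891, and its difference came from replicate 1 (0.17 against 0.004 in replicate 2). The feedback inhibitors Nkd1 and Nkd2 had log2 fold changes of 0.17 (SE 0.11) and 0.18 (SE 0.12).

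The 4 TCF/LEF genes were all tested and none was called. Tcf7l1, mostly a repressor of Wnt targets, had the highest level per kilobase (466) and 1682 and 1859 normalized counts against 1865 and 1905. Tcf7l2, the main TCF of the liver and gut, had 892 and 733 against 808 and 732. Tcf7 had 71.7 and 73.3 against 61.5 and 102, with opposite signs in the pairs. Lef1 was near 5.62 per kilobase and also changed sign between pairs (0.21, SE 0.25).

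The promoters of the called members were read for the TCF/LEF core motif, since Axin2 is a target of these factors. RefSeq promoters (250 bases before to 50 after the start site, GRCm38.p6) were found for 35 of the 52 members, 45 windows in all. The core CAAAG on either strand was in 19 of the 45 windows (42.2%), below the 53.9% of all 32851 promoters, and the longer ATCAAAG, which contains it, was in 4.44% against 3.73%. Of the 9 called members with a window, Wif1, Fzd10 and Dkk2 held 1 match each and Axin2, Sfrp2, Wnt4, Wnt9a, Fzd4 and Wnt2b held none. The called members Lgr5, Rspo2, Dkk3 and Wnt10a had no window. The motif was therefore not read for any member that DESeq2 with the block called. The windows of Axin2, Wif1 and Dkk2 are shown to compare the feedback gene with a called antagonist in each direction, with capitals marking CTTTG, the core read on the opposite strand. They lie at chr11:108920099-108920398 (Axin2), chr10:121033754-121034053 (Wif1) and chr3:132085042-132085341 (Dkk2), all on the plus strand.
Axin2: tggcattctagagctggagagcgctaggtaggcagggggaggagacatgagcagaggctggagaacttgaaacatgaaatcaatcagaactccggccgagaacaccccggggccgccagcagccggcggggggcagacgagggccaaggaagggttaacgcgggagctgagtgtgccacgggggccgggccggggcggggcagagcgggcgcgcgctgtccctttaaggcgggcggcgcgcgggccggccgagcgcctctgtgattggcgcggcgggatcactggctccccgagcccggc
Wif1: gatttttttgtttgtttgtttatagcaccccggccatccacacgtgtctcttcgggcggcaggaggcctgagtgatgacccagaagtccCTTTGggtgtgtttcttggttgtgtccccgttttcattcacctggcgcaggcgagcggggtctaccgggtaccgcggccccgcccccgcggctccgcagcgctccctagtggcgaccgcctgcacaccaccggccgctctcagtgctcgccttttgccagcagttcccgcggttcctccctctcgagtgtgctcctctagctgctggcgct
Dkk2: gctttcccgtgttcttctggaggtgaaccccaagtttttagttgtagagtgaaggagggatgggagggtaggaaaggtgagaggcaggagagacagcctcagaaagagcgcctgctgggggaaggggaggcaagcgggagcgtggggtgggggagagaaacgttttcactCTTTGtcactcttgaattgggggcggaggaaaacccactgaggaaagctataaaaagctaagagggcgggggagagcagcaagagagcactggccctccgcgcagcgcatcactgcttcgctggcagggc
The match begins at position -161 from the start site in Wif1, which was higher, and at -80 in Dkk2, which was lower. A match, or the lack of one, is only a description of these letters. Sequence outside the windows was not read, and no binding data entered here.

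The rest of the pathway was read from a list of 79 further genes, of which 72 were tested, 10 were higher and 3 lower in the KO-labelled libraries, and the median log2 fold change was 0.03. These counts stand beside 5.09% and 6.29% of all tested genes. They fell to 4 higher and 3 lower under quantile normalization, which lost Gsk3b, Apc, Bcl9l, Tle3, Daam2 and Ptk7, to 1 higher (Cd44) and 2 lower (Gpc3 and Oat) in DESeq2 with the block, and to 0 in limma without the block, where 9 had an unadjusted p under 0.05. Among reported target genes, Sp5, a zinc-finger gene that is a direct Wnt target in embryos, had 32.2 and 38.1 normalized counts against 72.5 and 112 in the controls. Both KO-labelled libraries were below both controls (log2 fold change -1.34, SE 0.24, adjusted p = 0.00159 from limma), at a low level that limits the size of this estimate. Cd44, a hyaluronan receptor, had 19302 and 18479 against 15826 and 14890.1, higher without overlap (log2 fold change 0.30, SE 0.039, adjusted p = 1.27e-04). Ccnd1, the cyclin of early G1, was also higher, at 65167 and 56635 against 51568 and 52128, and its difference was 0.34 in pair 1 and 0.12 in pair 2 (log2 fold change 0.23, SE 0.05, adjusted p = 0.00736). Myc, Tbx3, Ccn4, Ascl2, Sox9, Ephb2 and Ephb3 were not called, and Mmp7 was near 0. Genes that the pathway is known to induce lay on both sides. The 20 feedback and reported target genes drawn were chosen with their values known, and some are members counted above. In limma, 5.09% of all tested genes were higher and 6.29% lower. Of the 20 drawn, limma called 4 higher (Axin2, Cd44, Ccnd1 and Apcdd1) and 2 lower (Lgr5 and Sp5). The others were not called, among them Notum (log2 fold change 0.34, SE 0.15). In DESeq2 with the block, Axin2, Ccnd1, Apcdd1 and Sp5 were not called.

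Outside the cell, Apcdd1, a membrane inhibitor of Wnt, had 1887 and 1900.2 against 1607 and 1554 and was higher (log2 fold change 0.26, SE 0.054, adjusted p = 0.00474). The glypican Gpc3 was lower, with 5694 and 6496 against 6499.5 and 7726 (log2 fold change -0.22, SE 0.041, adjusted p = 0.00247), whereas its neighbour Gpc4 was higher (log2 fold change 0.15, SE 0.041, adjusted p = 0.0225). In the destruction complex, Gsk3b, the kinase that marks β-catenin, had 4487 and 4214 against 4104 and 3650.2, and Apc, its scaffold, 5337 and 4903 against 4873 and 4419.8. Both were higher, by 0.17 and 0.14 on the log2 scale. The other 19 tested genes of the relay were not called. Bcl9l, a β-catenin cofactor, and Tle3, a co-repressor of TCF, were higher by 0.18 and 0.18, with 11749 and 11226 against 9913 and 10405 and 3057 and 2844 against 2568 and 2644. In the planar cell polarity group, Daam2 and Ptk7 were higher by 0.17 and 0.13, with 2629 and 2417 against 2258 and 2224 and 20442 and 19333 against 18697 and 17771. The call of Ptk7 was also lost in edgeR, and those of Apc, Tle3 and Daam2 once GC content and length were corrected for. The secretion genes Wls and Porcn were not called.

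Of 8 pericentral hepatocyte genes, a set that depends on Wnt in the adult liver, 4 were tested and 1 was called. The tested genes, Oat, Glul, Slc1a2 and Lect2, had log2 fold changes of -0.30 to 0.12 (median -0.13). Slc1a2 and Lect2 were not called. Cyp1a2 was at 0 in all 4 libraries, Cyp2e1 reached 2.93 normalized counts, and Rhbg and Slc13a3 reached at most 2.13. Bulk counts do not show which cells gave the reads of the tested genes. Oat was lower, at 8679 and 9079 against 10455 and 10875 (log2 fold change -0.26, SE 0.039, adjusted p = 4.12e-04), and Glul, the classic pericentral gene, had 10431 and 10778 against 9164 and 10437 (log2 fold change 0.12, SE 0.043), which did not pass.

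**Figure D4:**
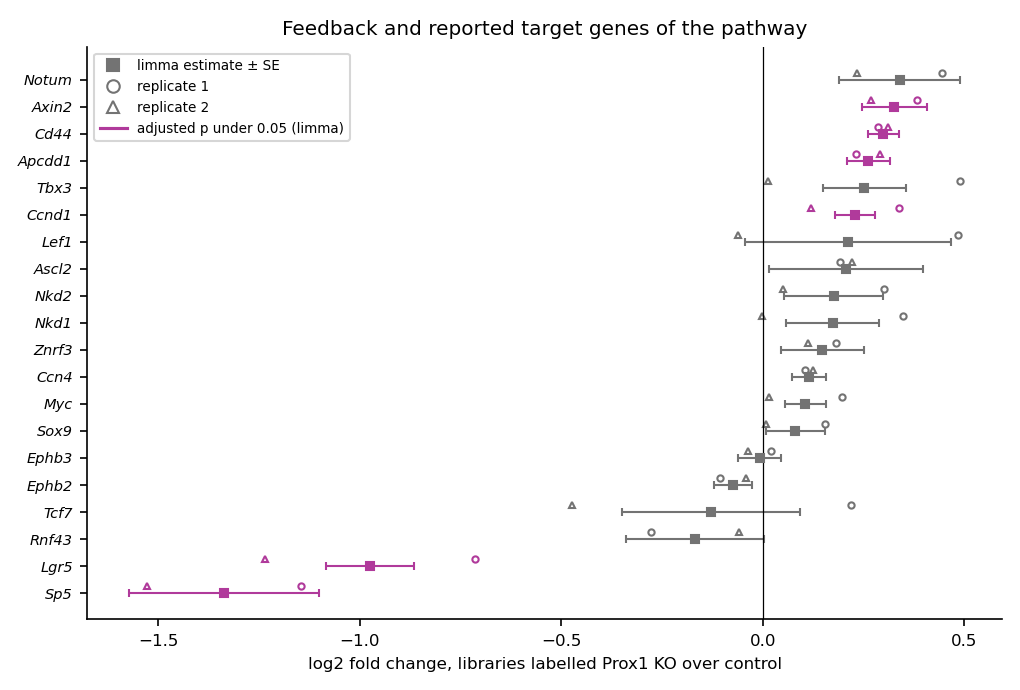
Log2 fold change with its standard error from limma (squares) and the difference in each replicate pair (open symbols), KO-labelled libraries over control, for 20 feedback and reported target genes chosen for drawing with their values known. Sp5 (-1.34) and Lgr5 (-0.97) lie far to the left, whereas Axin2 (0.33), Cd44 (0.30), Apcdd1 (0.26) and Ccnd1 (0.23) lie to the right.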

How the data were processed

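Bulk RNA-seq of 4 cultures (2 labelled Prox1 KO, 2 controls) was analysed, with groups and replicate numbers taken from the labels. The authors mapped dUTP-stranded paired reads to mm10 with STAR, and deposited normalized counts, a signal per gene equal to reads over a DESeq2 size factor per library. The tool that counted reads, its strand setting and the annotation are not given in the sources used here, so reads of a gene and its antisense partner cannot be told apart. A second deposited table holds the authors' own comparison (fold changes and p-values) and was not used. All positive values (100%, tolerance 0.001) were whole reads after division by a step per library, which gave size factors of 0.939 to 1.09.

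For genes averaging 10 or more, limma 3.58.1 (R 4.3.3) was fitted to log2(normalized counts + 1) with a variance trend, a block for replicate number (the study's methods adjust for MEF line) and Benjamini-Hochberg adjustment over all tested genes at 0.05. Same-numbered libraries shared deviations from their group means (correlation across genes 0.402, and 0.331 on autosomes), but with 2 pairs the numbers are not shown to be lines. The limma SEs and p-values draw the variance of each gene toward a trend over all tested genes. They are therefore not set by the spread of that gene alone. For Lgr5 the pairs were -0.71 and -1.24, with an SE of 0.11. Libraries of a group differed beyond sampling noise in 34.2% and 35.4% of genes (chi-square test), so none was counted as a duplicate. edgeR 4.0.16 and DESeq2 1.42.0 were run on the recovered reads, with the authors' size factors in DESeq2. Values in each library are given for called members, for members over 0.5 in size in both pairs and for the 3 highest per kilobase in each role, and for up to 2 called genes of each further pathway list; Wnt7b, Sfrp4, Lgr6, Rspo1, Ccnd1 (the third called target gene) and Glul were added after their values were seen. The members and lists were chosen with earlier results of these data known. Coordinates, exon lengths and overlaps come from GENCODE vM21 (GRCm38), which held 55137 of the 55397 identifiers. The scripts were tested on simulated counts. Alternatives were other pseudocounts (0.1, 10), filters, normalizations, tests, no block and each replicate left out.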

Additional observations from a re-analysis of the deposited data

How the results depend on the processing

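The replicate block and the choice of test mattered most. Without the block, limma called 0 genes in all (1783 at an unadjusted p under 0.05), 0 members (11 unadjusted) and 0 of the further pathway genes (9 unadjusted). DESeq2 with the block called 471 genes, 3 members and 3 further pathway genes, and with no block 159, 2 and 1. In the other settings with the block, 12 to 15 members were called. Quantile normalization left 7 further pathway genes called (4 higher, 3 lower), against 13. The signs of some uncalled members turned near 0. Quantile normalization gave 0.021 for Fzd6 and 0.0029 for Lgr4, and the correction for GC content and length gave 0.042 for Rspo3, -0.0063 for Lgr6 and 0.014 for Ryk. The median over members was -0.034 without replicate 1 and -0.052 without replicate 2, each from 1 pair with no test. With the longer motif, 4.44% of member promoters matched. The cause of these changes was not tested. Depth limits the genes averaging under 100 normalized counts, such as Sp5, Rspo4, Sfrp4 and Wnt7b. All error estimates come from 2 pairs, with variance shared across genes.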
